A study of Mus musculus with 5 samples.

Results

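The 34 genes described here encode enzymes and electron carriers of fatty acid oxidation and of ketone body use, measured by RNA sequencing of mouse hearts. They were listed by name and not by a cutoff on a measured value, but with earlier results of these data known. Each was found in the count tables, which list 49315 genes, and all 34 had enough counts to be tested. By role, as assigned here, they comprise 5 genes of the carnitine shuttle, 18 of mitochondrial oxidation, 5 of peroxisomal oxidation, 3 thioesterases and 3 genes of the ketone steps. Where in the cell each enzyme acts was not measured. Hearts came from mice kept for 18 weeks on a high-fat, high-sucrose (HFHS) diet (3 libraries) or on standard chow (2 libraries). Every mouse in both groups had also received 1 intravenous dose of iron dextran, and hearts were perfused with buffered saline and taken 48 h later. The comparison is therefore of diet among iron-treated animals, with no group without iron among the libraries analysed here. The labels give no strain, sex or age, nor do they say that each library is a separate mouse, so p-values measure the spread between libraries, part of which may be technical.

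The heart draws most of its ATP from long-chain fatty acids. An acyl group activated to acyl-CoA is passed to carnitine, carried across the inner mitochondrial membrane and returned to CoA. Repeated rounds of dehydrogenation, hydration, a further dehydrogenation and thiolysis then release acetyl-CoA. Electrons from the first dehydrogenation of a round reach the respiratory chain through electron transfer flavoprotein. Peroxisomes shorten very long and branched chains, thioesterases free the fatty acid again, and ketone bodies made by the liver enter the same acetyl-CoA pool. Many of these genes are known targets of the lipid-sensing receptor PPAR-alpha and of the estrogen-related receptors in cardiac muscle.

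Of the 34 genes, 19 were higher and 2 lower in the HFHS hearts at an adjusted p under 0.05, and 13 did not pass (edgeR's quasi-likelihood test, Benjamini-Hochberg adjustment over the 14221 genes tested). Among all tested genes 19.4% were called higher and 18.7% lower. The median change of the 34 genes was 0.35 on the log2 scale, against -0.01 for all tested genes. In 23 of the 34 every HFHS library lay above every chow library, in 5 every HFHS library lay below, and in 6 the groups overlapped. Over all tested genes the corresponding shares were 29.2% above and 29.4% below. The 34 genes together took 1.76%, 1.73% and 1.67% of all counts in the HFHS libraries, against 1.38% and 1.405% in the chow libraries. The genes that were higher included the muscle carnitine palmitoyltransferase Cpt1b (2.41-fold), Crat and Acot2 (1.91-fold each) and the trifunctional protein subunit Hadha (1.84-fold). The 2 genes that were lower were Etfb, a subunit of electron transfer flavoprotein (0.646-fold), and the thioesterase Acot13 (0.612-fold).

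**Figure D1:**
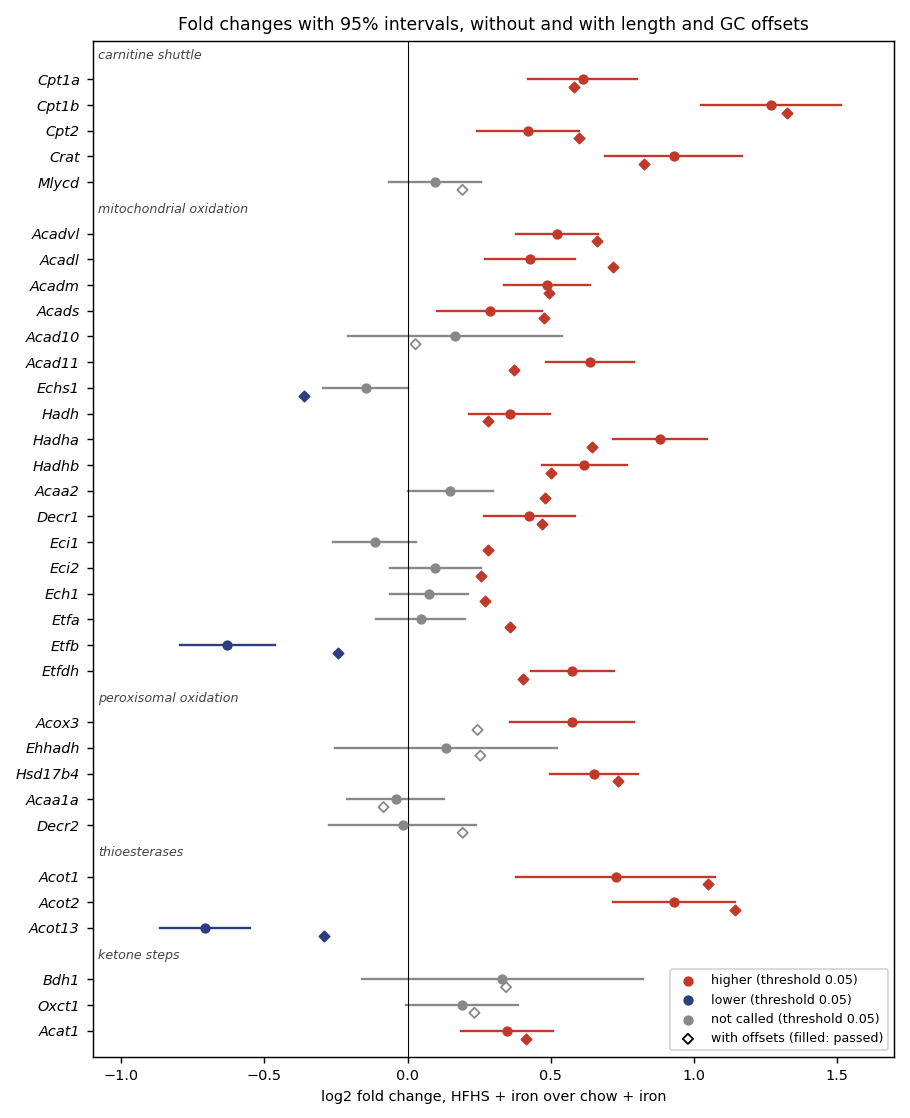
Log2 fold change (HFHS over chow) of each of the 34 genes, grouped by role, as circles with 95% intervals, with calls marked by colour. Diamonds give the change with offsets for exon length and GC content, filled where it passed. The intervals of the carnitine shuttle genes other than Mlycd lie to the right of 0, and Etfb and Acot13 lie to the left with intervals clear of 0.

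Total counts were 14362766 to 16546113 in the HFHS libraries and 17331356 to 17774735 in the chow libraries, so 3 counts correspond to 0.162 to 0.215 CPM (counts scaled to a common library total, after TMM scaling of the libraries). Mitochondrially encoded transcripts took 32.9% to 33.8% of counts in HFHS hearts and 30.3% to 31.8% in chow hearts. Marker lists of other cells moved with diet, with sums given as CPM of the totals without TMM scaling. Of 12 cardiomyocyte markers 5 were higher and 4 lower, and they summed to 64700 to 67500 CPM in HFHS hearts against 59100 to 64800 in chow hearts. All 7 fibroblast, all 7 macrophage and all 5 erythroid markers were lower, as were 4 of 6 endothelial markers. With offsets for exon length and GC content, 5 fibroblast, 5 macrophage, 5 erythroid and 5 endothelial markers were lower, and of the cardiomyocyte markers 6 were higher and 4 lower. The fibroblast sum was 771 to 837 CPM in HFHS hearts against 1200 to 1330 in chow hearts, the macrophage sum was 92.5 to 107 against 194 to 212, and the endothelial sum was 708 to 733 against 903 to 919. The erythroid sum was 250 to 524 CPM in HFHS hearts and 1480 to 1700 in chow hearts. In bulk tissue, fewer cells of a type and less RNA per cell cannot be told apart, and the part of these shifts in the values below was not tested. Brown and white fat also express the oxidation genes strongly. Of the fat-defining genes, Plin1 had 3, 3 and 4 counts in HFHS libraries against 0 and 0 in chow libraries, and Adipoq, Cidec, Lep and Ucp1 had at most 2 counts in any library. Cidea, the one gene of the fat list with enough counts to be tested, was not called without the offsets and was higher with them (log2 0.56, adjusted p = 0.000671), and the 6 genes summed to 22.1 to 25.6 CPM in HFHS hearts against 22 to 23 in chow hearts. Of 7 skeletal muscle genes 3 were tested and none called, though with the offsets Acta1, which heart also expresses, was higher (log2 0.99, adjusted p = 0.0262). Myh2 and Myh4 were at 0 in every library, and Actn3, not tested, had 6, 3 and 7 counts in HFHS libraries against 0 and 1 in chow libraries. That list summed to 149 to 223 CPM in HFHS hearts against 63.2 to 194 in chow hearts, and the liver list (4 genes, 2 tested, none called) to 0.597 to 12.9 against 1.07 to 5.77.

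In the carnitine shuttle 4 of 5 genes were higher in HFHS hearts, with a median log2 change of 0.61 and no overlap between the groups for any of the 5. Over all tested genes 19.4% were called higher, and in 29.2% every HFHS library lay above every chow library. Values are CPM after TMM scaling of the libraries. Cpt1b, the muscle form of the enzyme that loads long-chain acyl groups onto carnitine at the outer mitochondrial membrane (chromosome 15, 89416405 to 89425863, minus strand, GRCm38), stood at 140.1, 136 and 131 in the HFHS libraries, against 65.5 and 46.9 in the chow libraries. The HFHS libraries lay close together and far above both chow libraries, which differed more from each other. The change was 2.41-fold, a log2 value of 1.27 (SE 0.114, 95% interval 1.03 to 1.51, adjusted p = 1.6e-06, edgeR quasi-likelihood test). Leaving out chow replicate 1 gave a log2 value of 1.53, and leaving out chow replicate 2 gave 1.05. The annotation places 2744 of the 3372 exon bases of Cpt1b (81.4%) within exons of Chkb, a choline kinase gene on the same strand, so how reads from the shared exons were assigned bears on its level. Chkb itself had 51.6, 49.96 and 44.9 CPM in HFHS hearts and 49.05 and 47.3 in chow hearts, with overlapping groups and a log2 change of 0.02 (adjusted p = 0.877).

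Cpt1a, the form that predominates in liver and fetal heart, was also higher in every HFHS library. It stood at 55.2, 56.6 and 52.4 CPM in HFHS hearts, against 38.2 and 33.4 in chow hearts, a 1.53-fold change (log2 0.61, SE 0.0888, adjusted p = 0.000104). Counts of Cpt1b per count of Cpt1a were 2.54, 2.39 and 2.5 in HFHS libraries and 1.72 and 1.4 in chow libraries. The ratio was thus higher in all 3 HFHS libraries, and it carries the reading of Cpt1b's shared exons. With 3 libraries against 2 an exact permutation test cannot go below 0.1 one-sided, so ratios are given as values alone.

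Crat, carnitine acetyltransferase, which moves acetyl units between CoA and carnitine, had 497, 512 and 492 CPM in HFHS hearts, against 308 and 218 in chow hearts. The 3 HFHS libraries were nearly equal and the chow libraries were spread. Its log2 change was 0.93 (SE 0.112, adjusted p = 2.16e-05), with 0.70 without chow replicate 2 and 1.20 without chow replicate 1. Cpt2, which returns the acyl group to CoA on the matrix side, had 226, 224 and 224 CPM in HFHS hearts and 152 and 184 in chow hearts. Its groups did not overlap and its 1.34-fold change passed the test (log2 0.42, adjusted p = 0.00124). Mlycd, which degrades malonyl-CoA, the inhibitor of Cpt1, was not called: it had 78.7, 77.7 and 75.3 CPM in HFHS hearts and 69.9 and 74.7 in chow hearts. Its log2 difference was 0.10, with a 95% interval from -0.07 to 0.26.

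**Figure D2:**
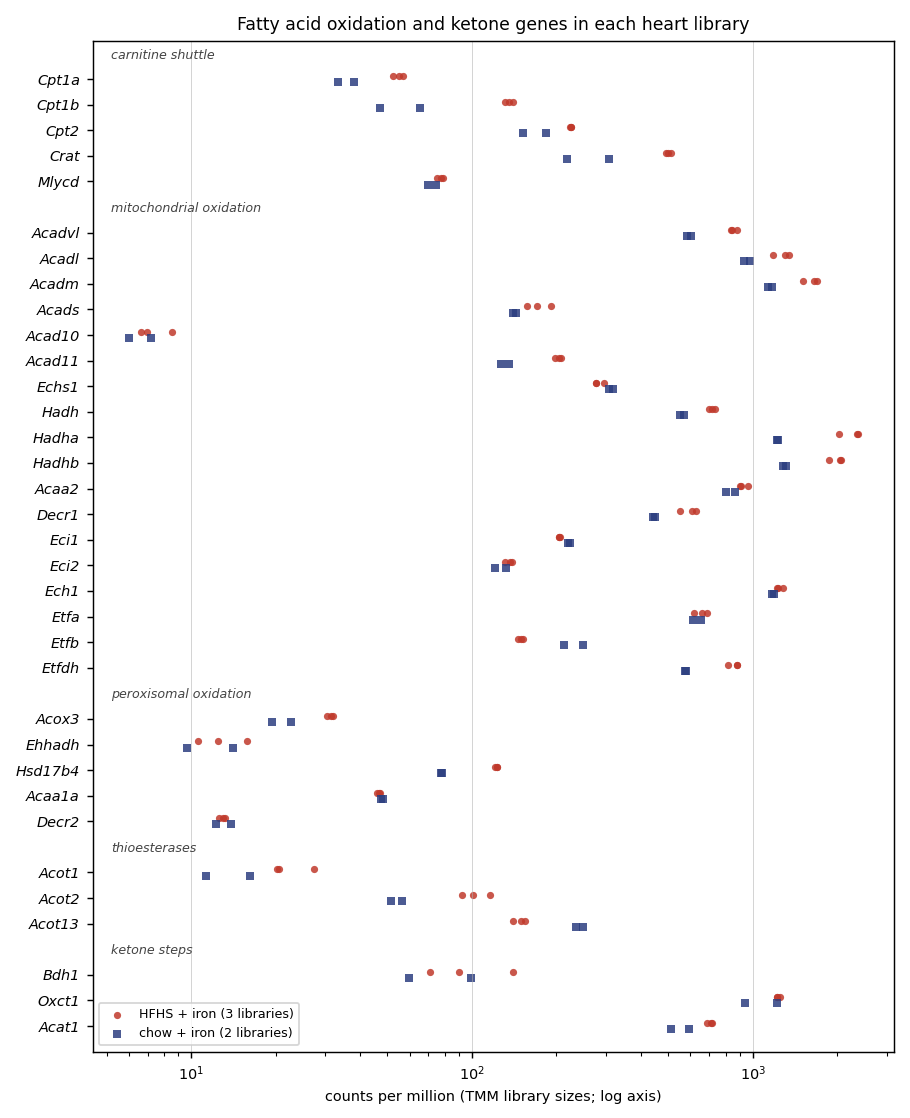
CPM (counts scaled to a common library total, log axis) of each of the 34 genes in each library, HFHS libraries and chow libraries drawn as separate symbols, with genes grouped by role. The groups separate for Cpt1a, Cpt1b, Cpt2, Crat, Hadha and Hadhb, and they overlap for Bdh1 and Etfa. For Mlycd they barely separate, with 75.35 CPM in the lowest HFHS library and 74.71 in the highest chow library.

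Of the 18 genes of mitochondrial oxidation, 10 were higher, 1 was lower (Etfb) and 7 did not pass, with a median log2 change of 0.32. In 12 of them every HFHS library lay above every chow library, in 3 every one lay below and in 3 the groups overlapped. Over all tested genes 29.2% lay above and 29.4% below in this way, and 19.4% were called higher and 18.7% lower. The 18 genes took 1.41%, 1.39% and 1.32% of all counts in HFHS libraries, against 1.10% and 1.11% in chow libraries.

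The acyl-CoA dehydrogenases open each round and differ in the chain length they accept. Acadvl, the very-long-chain form bound to the inner membrane, had 876, 837 and 843 CPM in HFHS hearts, against 605 and 581 in chow hearts (1.44-fold, adjusted p = 3.48e-05). The annotation places 42.9% of its exon bases within exons of Dvl2 on the opposite strand, which had 304 to 460 counts per library, and the strand setting of the counting is not known. Acadl, the long-chain form, had 1350, 1308 and 1180 in HFHS hearts, against 928 and 974 in chow hearts (log2 0.43, adjusted p = 0.000414). Acadm, the medium-chain form, had 1693, 1649 and 1515 in HFHS hearts, against 1174 and 1135 in chow hearts (log2 0.49, adjusted p = 9.58e-05). In all 3 genes every HFHS library lay above both chow libraries, by a margin larger than the spread within either group. Acads, the short-chain form, had 157, 169.9 and 192 CPM in HFHS hearts and 139.7 and 143.5 in chow hearts. It passed more narrowly (1.22-fold, log2 0.29, adjusted p = 0.017) and no longer did without chow replicate 1 (log2 0.27, adjusted p = 0.0554), while its adjusted p ranged down to 0.000177 over the alternatives. Acad11, which takes long saturated acyl-CoAs, was higher at 207, 198 and 205 CPM in HFHS hearts, against 126.5 and 135 in chow hearts (log2 0.64, adjusted p = 1.27e-05), and at log2 0.37 with the length and GC offsets (adjusted p = 0.00102). Acad10, with the fewest counts per length of the 34 genes, was not called at 6.62, 6.96 and 8.58 in HFHS hearts and 6.01 and 7.17 in chow hearts (adjusted p = 0.493), and it shares a stretch of 1614 bases at 95.3% identity with Acad12.

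Hadha and Hadhb encode the alpha and beta subunits of the mitochondrial trifunctional protein, which carries out the later steps on long chains. They lie head to head on chromosome 5 (GRCm38), Hadha from 30118304 to 30155162 on the minus strand and Hadhb from 30155248 to 30184593 on the plus strand, with 85 bases between them. That stretch, chr5:30155163-30155247 on the plus strand, is shown because both genes start from it. It holds the GC box GGGCGG at 2 places, in capitals, and the sequence is from RefSeq (GRCm38.p6).
Between Hadha and Hadhb: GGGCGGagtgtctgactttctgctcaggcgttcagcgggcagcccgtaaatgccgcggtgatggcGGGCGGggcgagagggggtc
Hadha had 2354, 2370 and 2036 CPM in HFHS hearts, against 1217 and 1230 in chow hearts, and Hadhb had 2045, 2056 and 1870, against 1318 and 1278. For each gene all HFHS libraries lay far above both chow libraries, with HFHS replicate 3 the lowest of the 3. The log2 change was 0.88 for Hadha (SE 0.077, adjusted p = 1.28e-06) and 0.62 for Hadhb (SE 0.0689, adjusted p = 1.11e-05). Counts of Hadha per count of Hadhb were 1.15, 1.15 and 1.09 in HFHS libraries, against 0.923 and 0.963 in chow libraries, so the ratio was higher in all 3 HFHS libraries. With the length and GC offsets the log2 changes lay closer, at 0.64 for Hadha and 0.50 for Hadhb, and their difference was not tested. A pseudogene copy of Hadhb, Gm13910, matches it at 99.8% over 1428 bases and had 136 to 231 counts per library. It was higher in HFHS hearts as well (log2 0.85, adjusted p = 0.000145), and its reads may not be told apart from those of Hadhb.

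Of the separate enzymes of the later steps, 1 was called. Hadh, the short- and medium-chain hydroxyacyl-CoA dehydrogenase, was higher at 737, 717 and 699.7 CPM in HFHS hearts, against 571 and 550.5 in chow hearts (1.28-fold, adjusted p = 0.000761). Echs1, the short-chain enoyl-CoA hydratase, had 296, 278 and 276 in HFHS hearts and 309 and 318 in chow hearts, every HFHS library below both chow libraries, and did not pass (log2 -0.15, adjusted p = 0.11). Acaa2, the thiolase of the matrix, had 964, 908 and 904 in HFHS hearts and 801 and 868 in chow hearts. Its groups did not overlap, but its 1.11-fold difference did not pass (adjusted p = 0.106). Without chow replicate 2 it did, at an adjusted p of 0.0425, within a range of 1.41e-05 to 0.378 over the alternatives.

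Unsaturated fatty acids need auxiliary enzymes. Decr1, the mitochondrial dienoyl-CoA reductase, was higher at 629, 606 and 550.5 CPM in HFHS hearts, against 447 and 439.7 in chow hearts (log2 0.43, adjusted p = 0.000442). The isomerases were not called. Eci1 had 204, 203 and 207 in HFHS hearts and 220.1 and 223 in chow hearts, all HFHS libraries lower (log2 -0.11, 95% interval -0.26 to 0.03). Eci2 had 138, 131 and 136 in HFHS hearts and 132 and 121 in chow hearts, with overlap. Ech1, the dienoyl-CoA isomerase, had 1233, 1223 and 1279 in HFHS hearts and 1195 and 1170 in chow hearts, all HFHS libraries higher by a small margin (log2 0.07, adjusted p = 0.392).

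Of the 3 genes of electron transfer, Etfdh was called higher, Etfb lower and Etfa was not called. Etfa and Etfb encode the subunits of electron transfer flavoprotein, which takes electrons from the acyl-CoA dehydrogenases, and Etfdh encodes the inner membrane enzyme that passes them to ubiquinone. Etfdh had 881, 876 and 819 CPM in HFHS hearts, against 581 and 572 in chow hearts (log2 0.58, adjusted p = 1.86e-05). Etfa had 688, 661 and 617 in HFHS hearts and 613 and 657 in chow hearts, with overlapping groups (log2 0.05, 95% interval -0.11 to 0.20). Etfb had 146, 149 and 152 in HFHS hearts, against 213 and 248 in chow hearts. Etfdh was thus higher and Etfb lower in all 3 HFHS libraries, and the groups overlapped for Etfa. With the length and GC offsets Etfa was called higher (log2 0.36, adjusted p = 0.00209), close to Etfdh (0.40, adjusted p = 0.000317). The log2 change of Etfb was -0.63 (SE 0.0776, 95% interval -0.80 to -0.46, adjusted p = 2.66e-05). Counts of Etfa per count of Etfb were 4.72, 4.43 and 4.07 in HFHS libraries and 2.88 and 2.65 in chow libraries. Counts of Etfdh per count of Etfa were 1.28, 1.33 and 1.33 in HFHS libraries, against 0.947 and 0.87 in chow libraries. These counts were not adjusted for the difference in annotated exon length (7505 bases in Etfdh and 1835 in Etfa). The annotation places 53.0% of the exon bases of Etfb within Gm45233, on the same strand, which had 1 to 8 counts per library.

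**Figure D3:**
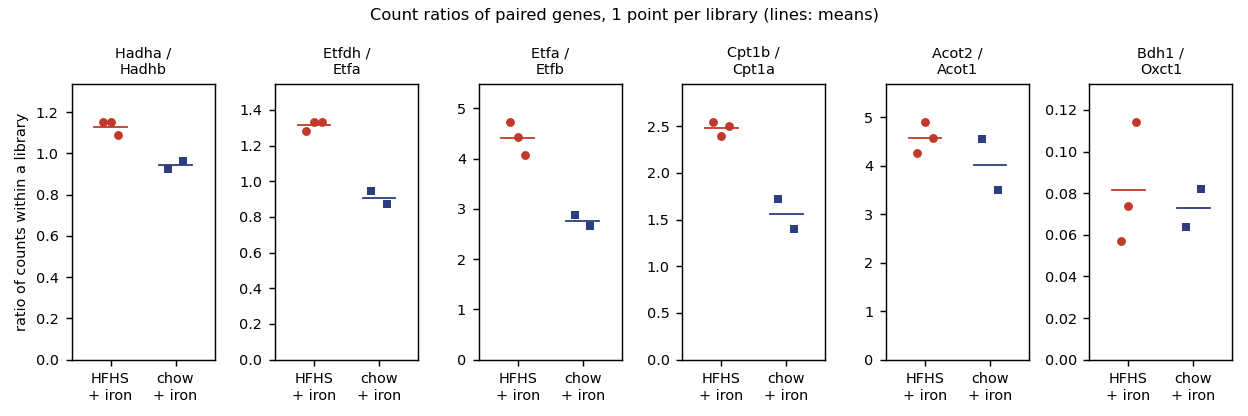
Ratio of counts within each library for gene pairs of the pathway (linear axes from 0, lines at group means), HFHS libraries left of chow libraries. Etfa per Etfb is 4.07 to 4.72 in HFHS libraries and 2.65 to 2.88 in chow libraries, and Bdh1 per Oxct1 overlaps between the groups.

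Of the 5 peroxisomal genes 2 were higher and 3 did not pass, with a median log2 change of 0.13. Hsd17b4, the D-bifunctional protein that hydrates and dehydrogenates very-long and branched chains, had 121, 123 and 123 CPM in HFHS hearts, against 77.5 and 78.3 in chow hearts. Libraries within each group were nearly equal, and the 1.57-fold difference (log2 0.65, adjusted p = 9.95e-06) was far larger than their spread. Acox3, an acyl-CoA oxidase for branched chains, had 30.4, 31.4 and 31.9 in HFHS hearts, against 22.6 and 19.3 in chow hearts (log2 0.57, adjusted p = 0.000471). Ehhadh, the L-bifunctional protein, had 15.8, 12.4 and 10.6 in HFHS hearts and 9.64 and 14.1 in chow hearts. HFHS replicates 2 and 3 were below chow replicate 2 (log2 0.13, 95% interval -0.26 to 0.52). Acaa1a, the peroxisomal thiolase, had 45.8, 47.1 and 46.8 in HFHS hearts and 47.5 and 48.3 in chow hearts (log2 -0.04, 95% interval -0.21 to 0.13). Decr2, the peroxisomal dienoyl-CoA reductase, had 12.6, 12.99 and 13.2 in HFHS hearts and 12.2 and 13.9 in chow hearts (log2 -0.02, 95% interval -0.27 to 0.24).

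The 3 thioesterases went in opposite directions, and all 3 passed the test. Acot1 is cytosolic and Acot2 mitochondrial, and both hydrolyse long-chain acyl-CoA. They lie on chromosome 12 (GRCm38), Acot2 from 83987861 to 83993873 and Acot1 from 84009502 to 84017670, 15.63 kb apart. Their transcripts share a stretch of 1274 bases at 95.1% identity, so reads may be split between them. The 250 bases before each start, on the plus strand (chr12:84009252-84009501 for Acot1 and chr12:83987611-83987860 for Acot2), are shown because these genes with a shared transcript stretch differ there. CCAAT and the GC box GGGCGG on either strand are in capitals, and the sequences are from RefSeq (GRCm38.p6).
Acot1: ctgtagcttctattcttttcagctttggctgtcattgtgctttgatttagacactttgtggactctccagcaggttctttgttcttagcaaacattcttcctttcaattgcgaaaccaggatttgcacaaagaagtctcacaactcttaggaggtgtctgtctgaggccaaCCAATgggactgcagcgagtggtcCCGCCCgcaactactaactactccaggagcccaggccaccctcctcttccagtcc
Acot2: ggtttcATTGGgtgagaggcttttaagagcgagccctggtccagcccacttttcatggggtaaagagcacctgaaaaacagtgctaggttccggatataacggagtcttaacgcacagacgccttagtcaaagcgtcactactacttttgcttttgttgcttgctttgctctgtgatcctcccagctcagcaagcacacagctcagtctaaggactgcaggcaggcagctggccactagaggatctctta
In an alignment of both stretches 119 of 268 columns were identical (44.4%). Acot2 had 116, 101 and 91.9 CPM in HFHS hearts, against 51.5 and 56.5 in chow hearts (1.91-fold, log2 0.93, adjusted p = 7.28e-06). Acot1 had 27.3, 20.6 and 20.1 in HFHS hearts, against 11.3 and 16.2 in chow hearts (1.66-fold, log2 0.73, SE 0.162, adjusted p = 0.00277). Neither gene's groups overlapped, and HFHS replicate 1 was the highest library for each. Counts of Acot2 per count of Acot1 were 4.26, 4.89 and 4.56 in HFHS libraries and 4.55 and 3.49 in chow libraries, with overlap. Acot13, a small thioesterase of the hotdog fold found on mitochondria, had 149, 140.3 and 154 in HFHS hearts, against 234 and 249 in chow hearts. Its 3 HFHS libraries all lay far below both chow libraries (log2 -0.71, SE 0.0725, 95% interval -0.86 to -0.55, adjusted p = 5.21e-06).

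Of the 3 ketone genes, Acat1 was called higher and the other 2 did not pass. Acat1, the mitochondrial acetoacetyl-CoA thiolase, had 709, 714 and 688 CPM in HFHS hearts, against 593 and 512 in chow hearts (1.27-fold, log2 0.35, adjusted p = 0.0022). Oxct1, which activates acetoacetate and sets the entry of ketone bodies into oxidation, had 1246, 1218 and 1218 in HFHS hearts and 936 and 1216 in chow hearts. The HFHS libraries were alike and chow replicate 2 stood beside them, while chow replicate 1 was lower. Its log2 difference of 0.19 did not pass (95% interval -0.01 to 0.39, adjusted p = 0.117). Bdh1, which interconverts hydroxybutyrate and acetoacetate, varied most of the 3 within groups, at 71.0, 89.7 and 139.5 in HFHS hearts and 59.55 and 99.5 in chow hearts (log2 0.33, 95% interval -0.16 to 0.82, adjusted p = 0.277). Leaving out 1 library moved both. Without chow replicate 2 the log2 difference was 0.39 for Oxct1 (adjusted p = 0.000437) and 0.75 for Bdh1 (adjusted p = 0.0167), and without chow replicate 1 it was 0.015 for Oxct1 and 0.008 for Bdh1. Without HFHS replicate 3 it was 0.018 for Bdh1 (adjusted p = 0.953). Over the alternatives the adjusted p ran from 0.000437 to 0.895 for Oxct1 and from 0.00136 to 0.983 for Bdh1.

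Levels between genes are compared per length, as CPM per kilobase of exon. That length covers all annotated exons of a gene and can far exceed a single transcript. Hadhb has 6595 exon bases, and its longest protein-coding transcript has 2048. The order below holds for this length only, and other lengths were not tried. In HFHS hearts Acadl stood highest at 638 ± 44.1 (474 ± 16.4 in chow hearts), with Acaa2 at 611 ± 22.4 (551 ± 31.1 in chow hearts) and Ech1 at 545 ± 12.97 (518 ± 8.03 in chow hearts; SD, n = 3 HFHS and 2 chow). In HFHS hearts Acadl and Acaa2 were within 1 SD of each other, whereas in chow hearts Acadl lay below both Acaa2 and Ech1. Acadm followed at 414 ± 23.7 in HFHS hearts and 295 ± 7.06 in chow hearts. Acot13 was the one gene of the first 10 with a lower level in HFHS hearts, 205 ± 9.81 against 335 ± 14.8 in chow hearts. The 5 peroxisomal genes were all in the lower part of the order, from Hsd17b4 at 36.0 ± 0.312 in HFHS hearts and 22.9 ± 0.177 in chow hearts down to Acox3 at 2.71 ± 0.0658 and 1.82 ± 0.202. Acad10 was last, at 1.22 ± 0.173 in HFHS hearts and 1.09 ± 0.135 in chow hearts.

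The direction of a change moved with exon length across the whole table. The length used here and in the offsets is that of all annotated exons of a gene, not of a single transcript. Bins and offsets may therefore misplace genes with many annotated exon bases outside their main transcript. In 10 bins of exon length over all tested genes, the median log2 change went from -0.471 in the bin of the shortest (57 to 1436 bases) to 0.323 in the bin of the longest (9237 to 123179 bases). Over the 34 genes Spearman's rho between exon length and log2 change was 0.402, and over all 14221 genes it was 0.43. These are correlations across genes, which share the same 5 libraries and are not independent replicates. Among the 34, Echs1, Etfb, Acot13 and Acaa1a lay below the median of their length bin, and the other 30 lay above it. Cpt1b lay 1.308 above its bin's median, Acot2 1.106 and Acot1 1.051 above, while Acot13 lay at -0.237 and Etfb at -0.158 from theirs.

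**Figure D4:**
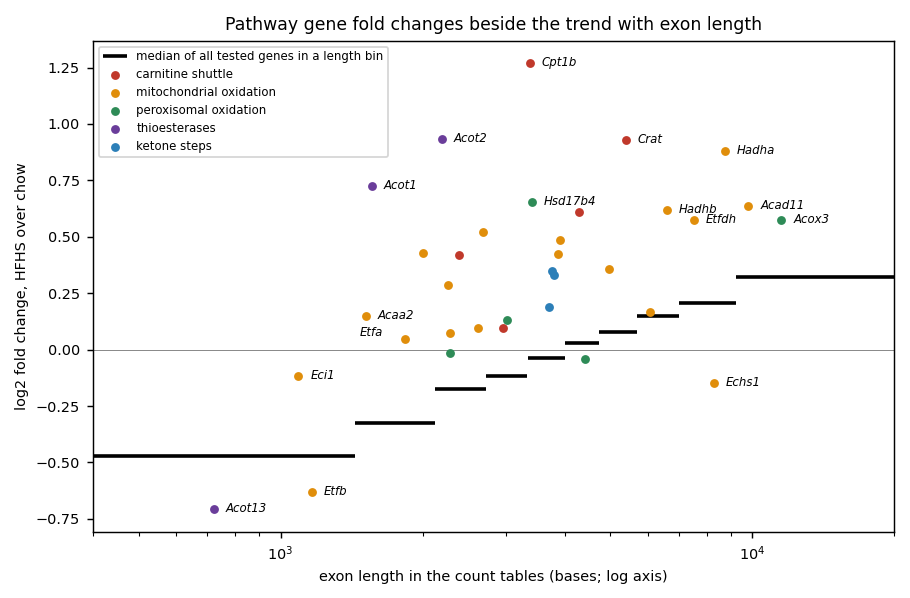
Log2 change (HFHS over chow) against exon length in bases (log axis) for the 34 genes, with the median of all tested genes in each of 10 length bins drawn as black bars stepping from -0.471 to 0.323. Cpt1b, Acot2 and Acot1 stand highest above the bars.

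With per-library offsets for exon length and GC content in the same fit, 23 of the 34 genes were higher, 3 lower and 8 not called, where 15.8% of all tested genes were higher and 14.9% lower. The median of the 34 was then 0.39, and Spearman's rho with length was -0.033. Of the genes called without offsets, 18 higher and 2 lower kept their call, and Acox3 did not (log2 0.24, adjusted p = 0.0848). Acot13 and Etfb stayed lower by less than before, at log2 values of -0.29 (adjusted p = 0.00657) and -0.24 (adjusted p = 0.0285). Echs1 became a lower call (log2 -0.36, adjusted p = 0.000802). Acaa2 (log2 0.48, adjusted p = 0.000202), Etfa (0.36, adjusted p = 0.00209), Ech1 (0.27, adjusted p = 0.00401) and Eci2 (0.25, adjusted p = 0.0134) became higher calls. Eci1 turned from a difference of -0.11 to a higher call at 0.28 (adjusted p = 0.00539). Acadl and Acads, higher in both fits, had larger changes with the offsets, at log2 values of 0.72 and 0.48. The carnitine shuttle had 4 of 5 genes higher, with Cpt1b at 1.33 and Crat at 0.83.

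Of 52 other genes of the same steps, 43 were tested, and 16 were higher, 5 lower and 22 not called, with a median log2 change of 0.14. The shares over all tested genes were 19.4% higher and 18.7% lower. With the length and GC offsets 18 were higher and 1 lower, where 15.8% of all tested genes were higher and 14.9% lower. Slc25a20, the carrier that exchanges acylcarnitine for carnitine across the inner membrane, had 232, 228 and 229 CPM in HFHS hearts, against 164 and 158 in chow hearts (1.43-fold, adjusted p = 5.73e-05). Acacb, which makes the malonyl-CoA that restrains Cpt1 at the mitochondrion, had 320.1, 354 and 323 in HFHS hearts, against 152 and 191 in chow hearts (1.94-fold, adjusted p = 3.83e-06). The enzyme that makes malonyl-CoA was thus called higher, and Mlycd, which removes it, was not called. Whether their changes differ was not tested. Abcd3, a transporter of branched acyl-CoA into peroxisomes, had 190.2, 176 and 175 in HFHS hearts, against 108 and 130.2 in chow hearts (1.52-fold, adjusted p = 0.000107). Ivd, the isovaleryl-CoA dehydrogenase of leucine breakdown, which also hands its electrons to electron transfer flavoprotein, had 397, 419.7 and 400.5 in HFHS hearts, against 246 and 244 in chow hearts (1.66-fold, adjusted p = 2.53e-06).

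Neighbouring enzymes of propionyl-CoA use, needed for odd-chain fatty acids, moved in opposite directions. Mcee, the methylmalonyl-CoA epimerase, had 40.8, 40.7 and 39.1 CPM in HFHS hearts, against 70.9 and 73.2 in chow hearts (0.558-fold, log2 -0.84, adjusted p = 1.95e-06). Mut, the mutase that follows it, had 141, 138 and 129 in HFHS hearts, against 93.8 and 96.2 in chow hearts (1.43-fold, adjusted p = 9.79e-05). Neither gene's groups overlapped. With offsets Mcee stayed lower (log2 -0.41, adjusted p = 0.00115). The other 4 genes called lower were Hsd17b10 (log2 -0.51), Pecr (-0.44), Acot9 (-0.42) and Them4 (-0.35), and none of them was called lower with the offsets. Slc16a1, a monocarboxylate transporter that carries lactate and ketone bodies, was among those higher, at 232, 251 and 261 in HFHS hearts, against 176 and 177 in chow hearts (1.41-fold, adjusted p = 0.000151).

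RefSeq promoter windows (GRCm38.p6, 250 bases before to 50 after the start) were searched for 27 of the 34 genes, in 28 windows. Any windows of the 34 genes on chromosome 18, which holds Acaa2 and Hsd17b4, were left out of the search. The comparison windows were not filtered in this way. Motifs were searched on both strands and compared with all 32851 windows of that length. The GC box GGGCGG was in 20 of 28 windows (71.4%), against 35.7% of all, and CCAAT was in 12 (42.9%), against 37.4%. TATAAA was in none of the 28, against 13.6% of all windows. The nuclear receptor core motif AGGTCA was in 4 windows (14.3%), those of Acadm, Acadvl, Cpt1a and Echs1, against 16.3% of all. The estrogen-related receptor site TCAAGGTCA was in none, against 0.423% of all. A direct repeat of AGGTCA with 1 base between, the form bound by PPAR-alpha, was in none with up to 1 mismatch allowed, against 0.554% of all. At shares this low, no match to the receptor site or the direct repeat is the likely outcome in 28 windows. Their absence therefore shows no lack of such sites in these genes. All motif counts are matches of letters in one short window and say nothing of binding there or elsewhere.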

How the data were processed

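RNA from 10 mg of frozen heart was enriched for poly(A) RNA, per the labels' protocols. The submitters' processing notes name Trimmomatic 0.36, STAR 2.5.2b, featureCounts of Subread 1.5.2 and build GRCm38. Strand, multimapping and overlap settings: not given in the sources used here. The authors deposited raw counts per gene, 1 table per library. Gene IDs were named from GENCODE M21, which holds 49056 of the 49315 IDs.

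Genes were filtered with filterByExpr, scaled by TMM and tested for diet with edgeR 4.0.16 (quasi-likelihood, R 4.3.3, limma 3.58.1), with Benjamini-Hochberg adjustment over all 14221 tested genes and a threshold of 0.05. Exon length and GC offsets were smooth trends per library (mgcv 1.9.3). The 13 alternatives were these offsets, a replicate block, both together, DESeq2 1.42.0, its size factors, limma-voom, no filter, no mitochondrially encoded genes, and each library left out in turn. The procedure was tested on simulated data with simpler settings than these data, such as the same spread between libraries for every gene. That test does not show how accurate the calls here are. Intervals and the level of 3 counts cover counting and between-library error only, since reads carry no molecular identifiers. All replicate pairs differed by more than counting noise (chi-square per degree of freedom 2.64 to 8.84 within groups).

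The 34 genes, the lists and the alternatives were chosen with earlier results of these data known. All 34 genes are named. Of the other genes, the 8 with the smallest p were to be named, and 2 of these 8 are not reported here. Others were added where a sentence on a step needed them.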

Additional observations from a re-analysis of the deposited data

How the results depend on the processing

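The 34 genes gave 18 to 25 higher and 2 or 3 lower calls over 13 alternatives, and 18 of the 21 genes called passed under all of them. The exceptions were Acads, Acox3 and Etfb. The labels do not say what a replicate number marks. Deviations of same-numbered libraries from their group means correlated at 0.034 and 0.007 over genes (2 shared numbers). The same HFHS libraries against the other chow library gave -0.034 and -0.007. With 2 chow libraries the chow deviations mirror each other, so these values cannot decide whether a shared number marks a pair. A replicate block gave 19 higher and 2 lower of the 34, but not the same 19: Acads lost its call (adjusted p = 0.0505) and Oxct1 gained one (log2 0.21, adjusted p = 0.0326, and 0.027 with the offsets). Bdh1 was at 0.048 with the replicate block. With the offsets added, the replicate block gave 25 higher and 2 lower, and Etfb did not pass (-0.22, adjusted p = 0.0528), nor Acox3 (adjusted p = 0.123).

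Of the other pathway genes, 5 were lower. That count was 3 with DESeq2, 3 with the replicate block, 1 with the length and GC offsets, 1 with both together, and 2 to 4 when a library was left out (2 without chow replicate 1, 3 without HFHS replicate 2 or HFHS replicate 3). The fits without a chow library assume that the remaining one varies like the HFHS libraries. Over all genes 5417 were called, and 4248 to 4929 with 1 library left out. Signs turned in genes that had not been called. Eci1 was 0.28 with offsets and 0.283 with the replicate block and offsets, Decr2 was 0.192 and 0.173 under the same settings, and Acad10 was -0.084 with the replicate block and offsets. With 1 library left out, Etfa ran from -0.002 to 0.095, Ehhadh from -0.114 to 0.429 and Decr2 from -0.105 to 0.076. The cause was not tested. The limits are the 2 chow libraries, the unstated counting of shared exons and near copies, and the absence of a group without iron, which leaves diet alone unmeasured.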

Other observations

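Of the 8 other thioesterases tested, 2 were higher, 2 lower (Acot9 and Them4, above) and 4 not called, with a median log2 change of -0.115. These counts are near the shares over all tested genes, 19.4% higher and 18.7% lower. With the length and GC offsets 2 of the 8 were higher and 0 lower. Acot11, a thioesterase that is strongly expressed in brown fat, had 24.4, 24.5 and 26.3 CPM in HFHS hearts, against 12.6 and 16.3 in chow hearts (log2 0.79, adjusted p = 0.000155). Acot4, a peroxisomal thioesterase of the Acot1 gene cluster, was also higher (log2 1.31, SE 0.472, adjusted p = 0.0419). Its counts were low, at 15, 14 and 20 in HFHS libraries against 10 and 6 in chow libraries. The size of its change is therefore uncertain. Of the 6 other carnitine shuttle genes 4 were higher and none lower. Slc22a5, the plasma membrane carnitine transporter, had a log2 change of 0.44 (adjusted p = 0.00491). Acaca, the cytosolic counterpart of Acacb, was higher (log2 0.61, adjusted p = 0.00344), but not called with the length and GC offsets (log2 0.18). All adjusted p-values are from edgeR's quasi-likelihood test, and these genes were chosen after their values were seen.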
